A study of Mus musculus with 18 samples.

Results

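Clu, Anxa1, Anxa3, Ly6a and Spp1 were chosen by name as genes of the fetal-like and regenerative state of the gut epithelium. Of these 5 genes, 3 had a probe set that the platform table used here pairs with 1 symbol: Clu, Anxa1 and Anxa3, among 19938 genes named in all. Ly6a and Spp1 were not analysed here. Each of the 3 genes had a single named probe set, all 3 passed the filter on low values, and 17316 genes passed it in all.

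When the adult intestinal lining is damaged, its cells can leave the usual stem cell program and switch on genes of the fetal gut. The transcriptional co-activator Yap1 and its TEAD partners are known to drive much of this switch, and Clu marks the rare revival stem cells that rebuild the crypts in mice. Clu encodes clusterin, a secreted chaperone. Anxa1 and Anxa3 encode annexins, proteins that bind membrane phospholipids when calcium rises, and Anxa1 also acts outside cells to resolve inflammation.

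The arrays came from mice in which the transcription factor Stat3 was or was not deleted in the intestinal epithelium, and the series asked whether Stat3 is needed for tumour progression. The 6 groups, of 3 arrays each, were Stat3-/- male tumours (replicates 10 to 12), Stat3fl/fl male tumours (7 to 9), Stat3-/- female tumours (16 to 18), Stat3fl/fl female tumours (13 to 15), Stat3-/- intestinal epithelial cells (4 to 6) and Stat3fl/fl intestinal epithelial cells (1 to 3). Both alleles of Stat3 were floxed in every group, and the Stat3-/- groups, called Stat3-deleted below, also carried Cre under the Villin promoter, which acts in epithelium, so stromal and immune cells of those tumours keep Stat3. The tumour mice were described as APCmin/+, with 1 mutated Apc allele that activates WNT signalling. The sample labels also name azoxymethane and dextran sulfate, and the gut segment, the age of the mice and the Apc genotype of the epithelial cell donors are not given.

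Values are deposited log2 expression values, so 1 unit is a doubling, and array medians lay between 5.88 and 6.07. Stat3 was lower in all 9 Stat3-deleted arrays than in all 9 controls, with differences of -2.09 (male tumours), -1.87 (female tumours) and -1.96 (epithelial cells; limma adjusted p 4.7e-06, 1.24e-05 and 1.23e-05). The position of this gene's probes relative to the floxed exons is not known here, so neither the size of this difference nor the remaining signal measures how complete the deletion was. The labels give no sex for the epithelial cells, whose Xist (3.92 to 4.46) lay with that of male tumours (3.81 to 4.20) and not of female tumours (9.77 to 10.45). Control tumours 9 and 15 stood apart in gut segment genes. Their Hoxd13, a gene of the posterior gut, was 8.25 and 9.10 and their Gata4, a gene of the proximal small intestine, was 6.92 and 6.84. The epithelial cells had Hoxd13 at 5.40 to 5.80 and Gata4 at 9.45 to 9.98. Their ileal genes Fabp6 and Slc10a2 were at 9.75 to 10.84 and 7.02 to 7.70. Both were lower in Stat3-deleted (-5.84 and -2.81) and control tumours (-2.73 and -0.97) than in epithelial cells of the same genotype (limma adjusted p at most 0.0173). With Stat3 deletion in tumours of both sexes Slc10a2 was lower (-2.03, adjusted p 0.000315) and Fabp6 did not pass (-2.89, adjusted p 0.0946). The part of gut segment in the comparisons below was not tested. Whether each array came from its own mouse is not given, so each p-value reflects the variation among these arrays, which may be technical.

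**Figure D1:**
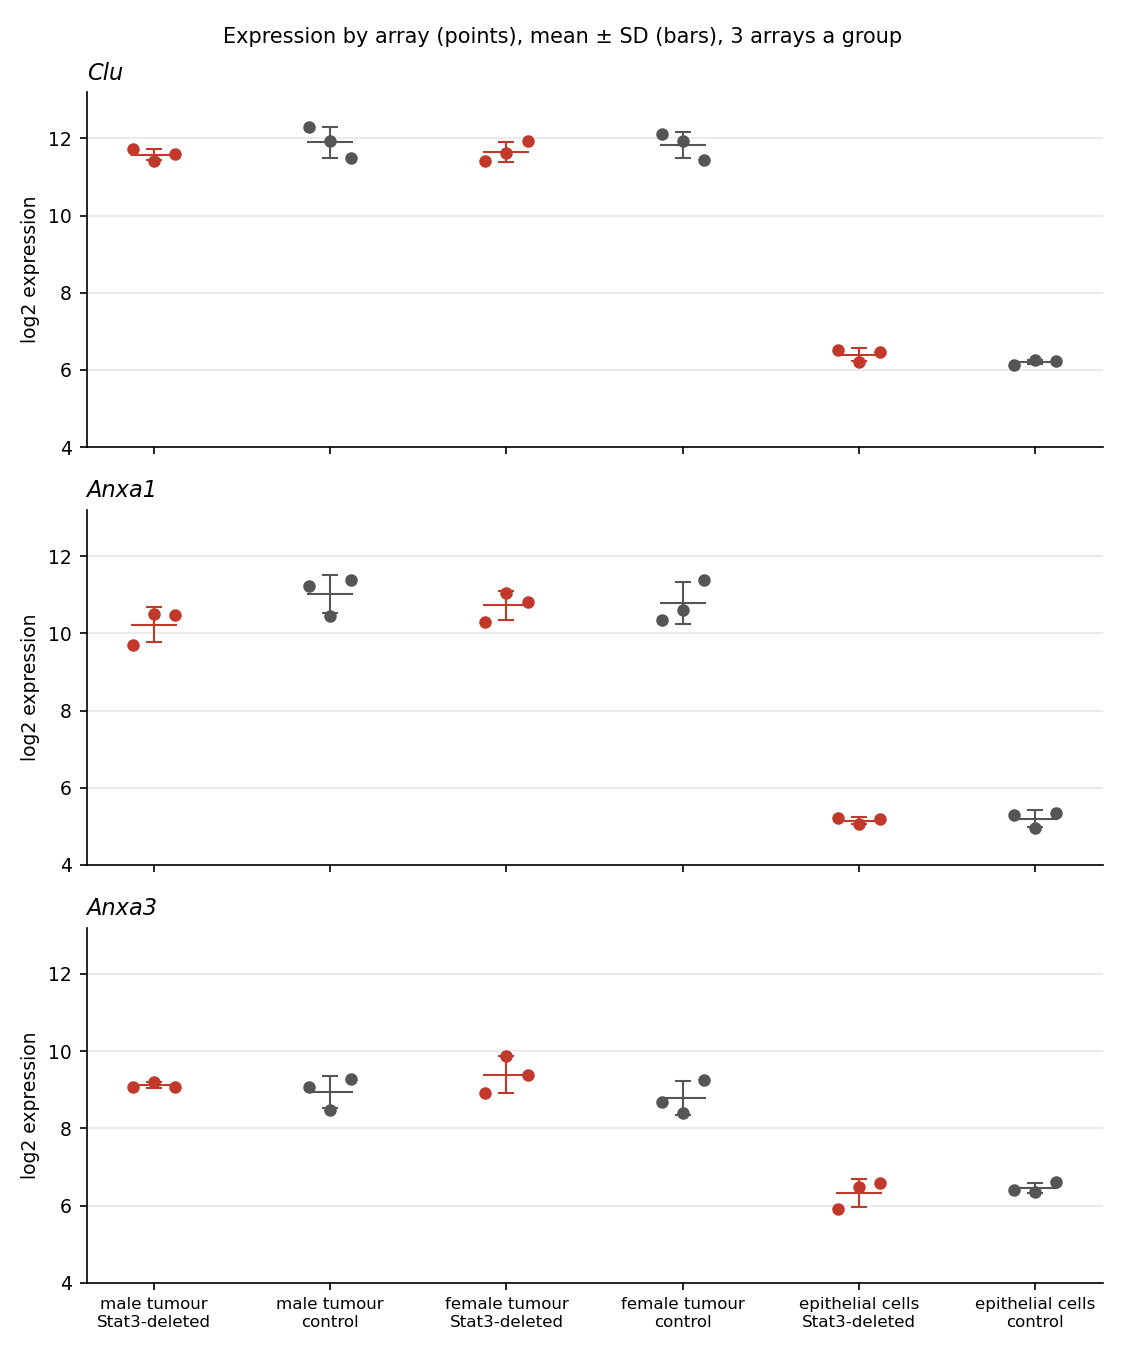
Log2 expression of Clu, Anxa1 and Anxa3 on each array (points), with the mean and SD of the 3 arrays of each group (bars); Stat3-deleted groups are red and controls grey. For each gene the lowest tumour array lies above the highest epithelial cell array, and the genotypes overlap within each tissue.

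Tumours had far higher levels of all 3 genes than epithelial cells, in both genotypes. Clu was 11.72, 11.42 and 11.60 in Stat3-deleted male tumours and 11.41, 11.62 and 11.92 in Stat3-deleted female tumours, against 6.53, 6.20 and 6.47 in Stat3-deleted epithelial cells. It was 12.28, 11.93 and 11.48 in control male tumours and 12.10, 11.94 and 11.44 in control female tumours, against 6.14, 6.24 and 6.22 in control epithelial cells. No tumour array came near an epithelial one. The mean difference was 5.22 ± 0.18 (SE) in the Stat3-deleted arrays, a 37.2-fold difference, and 5.66 ± 0.18 in the control arrays, a 50.6-fold difference (limma adjusted p 4.18e-11 and 1.13e-11).

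Anxa1 showed a contrast of the same size. It was 9.70, 10.51 and 10.48 in Stat3-deleted male tumours and 10.31, 11.04 and 10.82 in Stat3-deleted female tumours, against 5.21, 5.06 and 5.18 in Stat3-deleted epithelial cells. It was 11.24, 10.45 and 11.38 in control male tumours and 10.35, 10.61 and 11.40 in control female tumours, against 5.29, 4.96 and 5.36 in control epithelial cells. In epithelial cells it thus lay below the array medians (5.94 to 6.07), less than 1 unit over the 25th percentile of each array (4.51 to 4.57), which makes its fold uncertain at the low end. The difference was 5.33 ± 0.26 in Stat3-deleted arrays and 5.70 ± 0.26 in control arrays, 40.1-fold and 52.1-fold (adjusted p 1.37e-09 and 3.87e-10).

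Anxa3 differed less. It was 9.07, 9.20 and 9.06 in Stat3-deleted male tumours and 8.91, 9.89 and 9.39 in Stat3-deleted female tumours, against 5.92, 6.47 and 6.58 in Stat3-deleted epithelial cells. It was 9.08, 8.46 and 9.28 in control male tumours and 8.70, 8.39 and 9.26 in control female tumours, against 6.40, 6.36 and 6.61 in control epithelial cells. The tumour and epithelial arrays again did not overlap. The difference was 2.93 ± 0.23 in Stat3-deleted arrays and 2.41 ± 0.23 in control arrays, 7.60-fold and 5.30-fold (adjusted p 2.26e-07 and 9.78e-07).

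A call in these comparisons is common, since 30.3% of all tested genes were called higher and 36.2% lower in Stat3-deleted tumours, and 30.4% higher and 35.3% lower in control tumours, with median differences over all genes of -0.07 and -0.08. The arrays did not overlap for 55.9% and 51.1% of genes. By size, Clu and Anxa1 stood near the top of the list. Anxa1 ranked number 2 and Clu number 3 of 17316 genes by the difference in each genotype, and the genotype comparisons share no arrays. Anxa10 ranked first in the Stat3-deleted arrays (5.58) and Lcn2, which encodes the iron-binding defence protein lipocalin 2, in the control arrays (5.78). Anxa3 ranked number 115 in the Stat3-deleted and 257 in the control arrays. With male tumours only, which match the sex-linked values of the epithelial cells, the differences in Stat3-deleted arrays were 5.18 for Clu, 5.08 for Anxa1 and 2.78 for Anxa3, and in control arrays 5.70, 5.82 and 2.49.

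Bulk tumours hold other cells, and a higher share of a cell type cannot be told apart from more RNA per cell. The mean of the epithelial markers was 11.16 to 11.63 in Stat3-deleted tumours against 11.27 to 11.48 in Stat3-deleted epithelial cells. It was 11.02 to 11.58 in control tumours against 11.41 to 11.46 in control epithelial cells. This mean hides calls in both directions. In control tumours Krt18 (1.82), Krt19 (0.79) and Elf3 (0.60) were called higher and Krt20 (-1.61), Vil1 (-1.34) and Cldn7 (-0.57) lower. In Stat3-deleted tumours Krt18 (1.68), Krt19 (0.70) and Elf3 (0.44) were called higher and Vil1 (-0.75), Cldn7 (-0.77) and Cldn3 (-0.56) lower. Epcam, Cdh1 and Krt8 passed in neither genotype. Among Stat3-deleted arrays 11 of 12 macrophage, 10 of 12 fibroblast, 6 of 12 neutrophil, 10 of 10 endothelial and 8 of 8 smooth muscle markers were called higher in tumours. Among control arrays 12, 11, 9, 10 and 8 of the same lists were called higher, and in each genotype 1 fibroblast and 1 neutrophil marker was called lower. Of 12 T and NK cell markers, 0 were called higher and 9 lower in Stat3-deleted tumours, and 1 higher and 5 lower in control tumours, the last of these near the share of all genes called lower. The mean of the fibroblast markers was 8.84 to 10.35 in Stat3-deleted tumours against 6.57 to 6.77 in Stat3-deleted epithelial cells, and 8.85 to 9.59 in control tumours against 6.50 to 6.96 in control epithelial cells. The mean of the macrophage markers was 7.02 to 8.57 against 5.47 to 5.89, and 6.75 to 8.65 against 5.77 to 5.89. The median difference between control tumours and control epithelial cells was 2.90 over the fibroblast and 1.64 over the macrophage markers, where Dcn, a matrix proteoglycan of fibroblasts, reached 4.34. In the epithelial arrays Ms4a7 of the macrophage and Mmp8 of the neutrophil markers lay at or below the 25th percentile on all 6 arrays, and no fibroblast, endothelial or smooth muscle marker did. The part of these cells in the values of Clu, Anxa1 and Anxa3 was not tested.

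**Figure D2:**
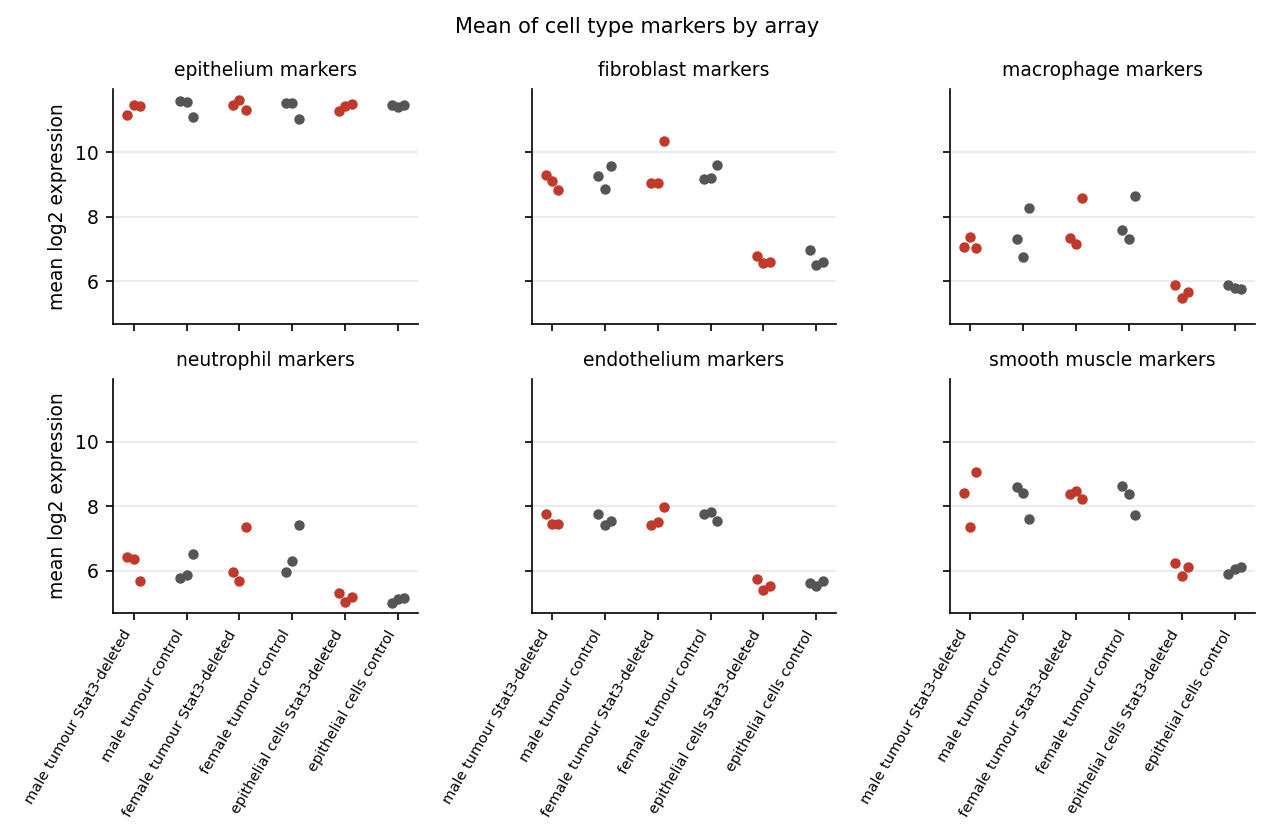
Mean log2 expression of 6 lists of cell type markers on each array, with Stat3-deleted groups in red and controls in grey. Epithelial markers lie between 11.02 and 11.63 on all arrays, and the fibroblast, macrophage, neutrophil, endothelial and smooth muscle lists are higher on every tumour array than on every epithelial cell array.

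Of 10 other measured annexins, 4 were called higher in Stat3-deleted tumours and 0 lower, against 4 and 1 in control tumours. The count called higher is near the share of all genes, 30.3% and 30.4%. Of all genes, 36.2% and 35.3% were called lower. The same shares hold for the tumour against epithelial cell counts of the lists below. Anxa10 was 5.58 ± 0.51 higher in Stat3-deleted and 4.07 ± 0.51 higher in control tumours, the largest difference among them. Anxa5, the annexin used to stain exposed phosphatidylserine, was 4.07 and 3.61 higher, Anxa8 2.71 and 3.58, and Anxa6 2.10 and 2.83 (adjusted p at most 0.000201). Anxa2, a partner of S100 proteins at the membrane, differed by 0.21 and 0.07 and did not pass, nor did Anxa7 (0.23 and 0.02) or Anxa11 (-0.29 and -0.22). Anxa4, which is found in many epithelia, was called lower in control tumours (-0.42, adjusted p 0.00822) and differed by -0.07 in Stat3-deleted tumours. Anxa9 differed by 0.11 and 0.32, and Anxa13, an annexin of gut epithelium, by 0.89 ± 0.53 in Stat3-deleted and -0.39 ± 0.53 in control tumours, and neither passed (adjusted p of Anxa13 0.149 and 0.528). The median over the 10 was 0.56 in Stat3-deleted and 0.19 in control tumours.

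Of 19 further measured genes reported in fetal or regenerating gut epithelium, 17 were called higher in Stat3-deleted tumours and 1 lower, against 17 and 0 in control tumours. The medians were 2.15 and 2.20. Tnc, which encodes the matrix protein tenascin C, was 4.20 higher in Stat3-deleted and 4.14 higher in control tumours, and Gja1, which encodes the gap junction protein a connexin, was 3.50 and 3.82 higher. Krt7, a keratin of simple ductal epithelia, was 2.54 and 2.27 higher, Ecm1, an extracellular matrix protein, 2.33 and 3.0, and F3, the coagulation starter tissue factor, 3.84 and 3.07. Cldn4, a tight junction claudin, was called lower in Stat3-deleted tumours (-0.41, adjusted p 0.0451), lost that call in 8 of 15 alternative fits and differed by 0.16 in control tumours. Emp1, a membrane protein, did not pass (-0.04 and -0.55). Tnc is also expressed by stromal cells, whose markers were higher in the tumours as given above. The part of stromal and immune cells in the values of these 19 genes was not tested.

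**Figure D3:**
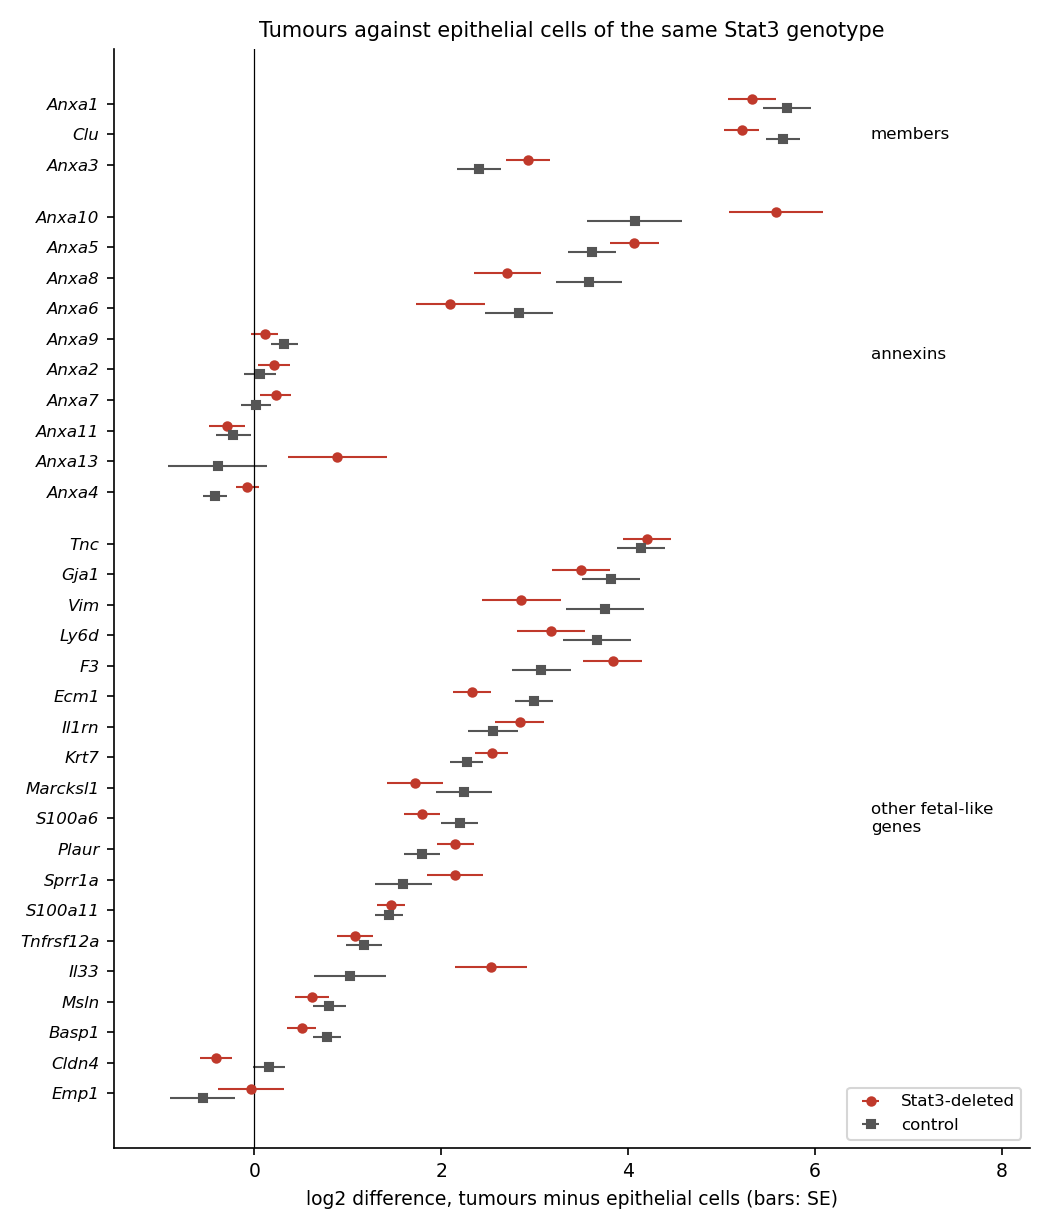
Log2 difference of tumours minus epithelial cells (x axis, bars are the SE) for Clu, Anxa1 and Anxa3, the other annexins and the other fetal-like genes, in Stat3-deleted (red circles) and control (grey squares) arrays. Anxa1 and Clu lie between 5.22 and 5.70 in both genotypes, right of every further fetal-like gene, and Anxa2, Anxa7, Anxa9 and Anxa11 lie between -0.29 and 0.32.

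Targets of Yap1 moved in both directions. Of 22 genes of a published Hippo target signature, 11 were called higher and 4 lower in Stat3-deleted tumours, against 11 and 6 in control tumours. Among all genes, 30.3% were called higher and 36.2% lower in Stat3-deleted tumours, and 30.4% and 35.3% in control tumours. The medians over the 22 were 0.68 and 0.35. Myof, a membrane repair protein, was 2.78 higher in Stat3-deleted and 2.52 higher in control tumours, and Igfbp3, a binder of insulin-like growth factors, 2.50 and 3.21. Ccn1 and Ccn2, matricellular proteins that are standard Yap1 targets, were 1.35 and 1.33 higher in Stat3-deleted tumours and 1.71 and 1.78 higher in control tumours. Gadd45a, a stress response gene, and the kinase gene Nuak2 were lower in Stat3-deleted tumours (-1.12 and -1.88) and in control tumours (-1.56 and -2.18), as was Nt5e, which encodes the adenosine-producing ectoenzyme CD73 (-0.72 and -1.84). Yap1 itself was 0.68 higher in Stat3-deleted and 0.66 higher in control tumours (adjusted p 0.00101 and 0.00139), and the DNA-binding partner gene Tead1 2.34 and 2.55. Several of these genes, Ccn2 and Axl among them, are also expressed by stroma.

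Of 14 measured crypt-base stem cell genes, 11 were called higher in Stat3-deleted and 13 in control tumours, with 0 lower in both and medians of 1.76 and 2.0. Lgr5, the WNT-responsive receptor that marks crypt-base stem cells, was 3.49 higher in Stat3-deleted and 3.66 higher in control tumours. Fetal-like and stem cell genes were therefore both higher in the same bulk samples. Whether they were higher in the same cells cannot be read from bulk RNA. Among receptors known to bind clusterin or osteopontin, the protein of Spp1, Cd44 was 3.38 and 3.57 higher, and 8 of 10 measured receptors were called higher and 1 lower in each genotype.

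Stat3 deletion left the 3 genes high in tumours. In tumours of both sexes, limma called 0 of the 3 at an adjusted p of 0.05, against 0.71% of all genes, and 0 at an unadjusted p of 0.05, against 12% of all genes. The genotypes overlapped for all 3, where 1.36% of genes did not overlap. Clu differed by -0.25 ± 0.15 (SE), with a 95% interval of -0.56 to 0.07 (adjusted p 0.563). Anxa1 differed by -0.43 ± 0.21, interval -0.87 to 0.02 (adjusted p 0.437), and Anxa3 by 0.39 ± 0.19, interval -0.01 to 0.80 (adjusted p 0.434). Leaving out control tumour 7 gave -0.15 for Clu, and leaving out control tumour 15 gave -0.28 for Anxa1. The intervals leave room for changes of up to nearly 1 log2 unit in Anxa1 and Anxa3, and are small beside the tumour differences above. A p above the threshold does not show that deletion had no effect.

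Clu averaged 11.58 ± 0.15 (SD, n = 3) in Stat3-deleted and 11.9 ± 0.40 in control male tumours, and 11.65 ± 0.26 in Stat3-deleted and 11.83 ± 0.34 in control female tumours. The differences were -0.32 ± 0.21 (SE) in males and -0.18 ± 0.21 in females (limma adjusted p 0.836 and 0.997). The lowest control values, 11.48 and 11.44, were those of tumours 9 and 15, the arrays with posterior gut genes. Without them the 6 Stat3-deleted tumours (11.41 to 11.92) and the 4 control tumours (11.93 to 12.28) did not overlap, by a gap of under 0.01, as was the case for 3.36% of all genes. The difference was then -0.45, and did not pass (adjusted p 0.159).

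Anxa1 averaged 10.23 ± 0.46 (SD, n = 3) in Stat3-deleted and 11.02 ± 0.50 in control male tumours, and 10.72 ± 0.38 in Stat3-deleted and 10.79 ± 0.54 in control female tumours. In males the difference was -0.79 ± 0.30 (SE), with an unadjusted p of 0.0167 in limma, where 7.52% of all genes lay under 0.05 and 0.231% passed, and an adjusted p of 0.518. The male groups overlapped, as for all 3 genes (10.1% of genes did not), because control tumour 8 (10.45) lay below Stat3-deleted tumours 11 and 12. In females the difference was -0.06 ± 0.30 (adjusted p 0.997). The difference between the sexes, 0.73 ± 0.42 as female minus male effect, did not pass (adjusted p 1.0, with 0 genes called and 0.936% of genes at an unadjusted p under 0.05). Without tumours 9 and 15 the difference over both sexes was -0.19 (adjusted p 0.857).

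Anxa3 averaged 9.11 ± 0.08 (SD, n = 3) in Stat3-deleted and 8.94 ± 0.42 in control male tumours, and 9.40 ± 0.49 in Stat3-deleted and 8.78 ± 0.44 in control female tumours. In females the difference was 0.61 ± 0.27 (SE), with an unadjusted p of 0.0369, where 5.03% of all genes lay under 0.05 and 0.104% passed, and an adjusted p of 0.958. The female groups overlapped, as for all 3 genes (15.6% of genes did not), through control tumour 15 (9.26), which was above Stat3-deleted tumour 16 (8.91). In males the difference was 0.17 ± 0.27 (adjusted p 0.986). Without tumours 9 and 15 the difference over both sexes was 0.59 (adjusted p 0.198).

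**Figure D4:**
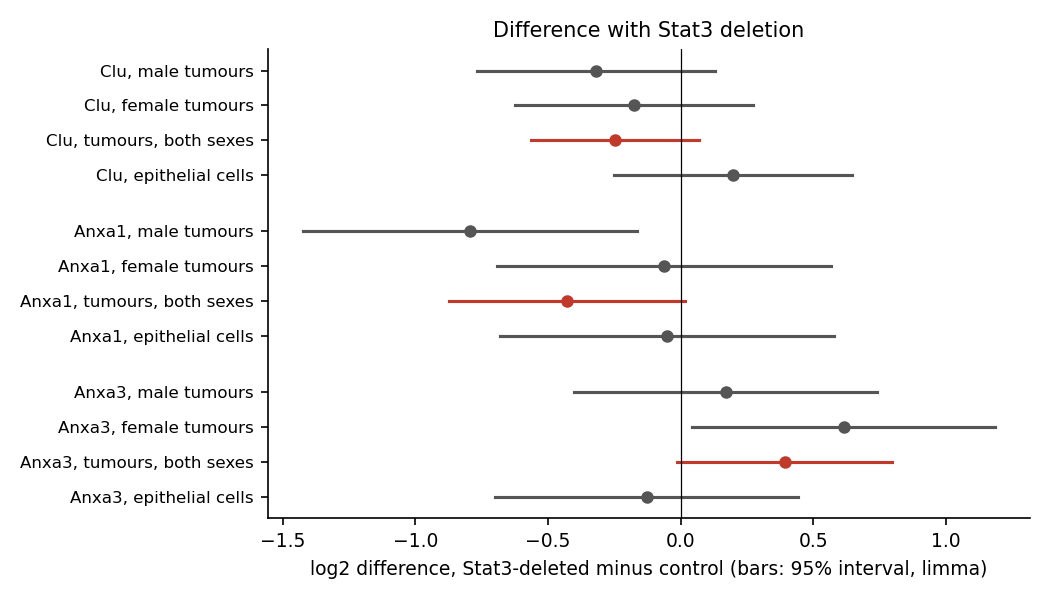
Log2 difference of Stat3-deleted minus control arrays for Clu, Anxa1 and Anxa3 in male tumours, female tumours, tumours of both sexes (red) and epithelial cells, with 95% intervals from the fit over all arrays. Over both sexes Clu and Anxa1 lie below 0 and Anxa3 above it, and all 3 of these intervals include 0.

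In epithelial cells the genotypes also overlapped for each gene, where 14.1% of genes did not overlap. Clu averaged 6.40 ± 0.18 (SD, n = 3) in Stat3-deleted and 6.20 ± 0.06 in control cells, a difference of 0.20 ± 0.21 (SE, limma adjusted p 0.852). Anxa1 averaged 5.15 ± 0.08 and 5.20 ± 0.21, and Anxa3 6.33 ± 0.35 and 6.45 ± 0.13, with differences of -0.05 and -0.13 (adjusted p 0.979 and 0.937). In this comparison 0.0231% of all genes passed and 6.8% had an unadjusted p under 0.05. The effect of deletion in tumours minus that in epithelial cells was -0.44 for Clu, -0.38 for Anxa1 and 0.52 for Anxa3, and none passed (adjusted p 0.572, 0.715 and 0.595, with 0.0116% of genes called and 9.38% at an unadjusted p under 0.05).

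Ordered by group mean, Clu was highest in control male tumours, then control female, Stat3-deleted female and Stat3-deleted male tumours, and then in Stat3-deleted and control epithelial cells. Anxa1 had the same order within tumours, and Anxa3 had Stat3-deleted female tumours first, then Stat3-deleted male, control male and control female tumours. For each gene the arrays of neighbouring groups overlapped everywhere except at the step between tumours and epithelial cells. Male minus female tumours differed by -0.00015 for Clu, -0.13 for Anxa1 and -0.06 for Anxa3 (limma adjusted p 1.0, 0.860 and 0.929, with 0.0231% of genes called and 6.13% at an unadjusted p under 0.05), and the sexes overlapped for all 3 genes, where 0.277% of genes did not overlap.

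Of the other listed genes, cell type markers and gut segment genes aside, 8 were called with Stat3 deletion in tumours of both sexes. Of all genes, 0.71% were called. Among the gut segment genes Slc10a2 fell (-2.03, limma adjusted p 0.000315), and Hoxd13, Hoxb13, Car1, Gata4 and Fabp6 did not pass. Of the 19 further fetal-like genes 1 fell, Basp1, a membrane-associated signalling protein (-0.57, adjusted p 0.0498), whose call was lost in 14 of 18 alternative fits. Of the 22 Hippo targets 1 rose, Nt5e (1.11, adjusted p 0.0315, lost in 9 of 18). Of the 10 other annexins and the 10 receptors 0 passed, with Anxa10 at 1.28 (adjusted p 0.192) and Cd44 at 0.28. Of 14 stem cell genes 1 fell, the transcription factor gene Ascl2 (-0.82, adjusted p 0.0202, lost in 5 of 18). Of 7 measured Ly6 genes, the family of Ly6a, 1 fell: Ly6g, a surface protein of mouse neutrophils (-2.99, adjusted p 0.00193), called in all 18 alternative fits. Of 12 neutrophil markers 0 passed, and their mean overlapped between the genotypes, at 5.67 to 7.37 (median 6.16) in Stat3-deleted and 5.78 to 7.43 (median 6.13) in control tumours. Of 16 interferon response genes 4 rose, with a median of 0.99 against -0.04 over all genes. Their calls were lost in 1 of 18 alternative fits for Irf7, 5 for Ifit3, 9 for Oasl2 and 10 for Stat2. Of the 8 genes counted above, only Ly6g was thus called in every alternative. The medians of the fetal-like and Hippo lists were 0.08 and 0.12.

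Among themselves, the 12 tumours varied more in these genes than in most. The pooled SD within tumour groups was 0.30 for Clu, 0.47 for Anxa1 and 0.39 for Anxa3, against a median of 0.23 over all genes. Anxa1 and Anxa3 varied together within groups. The Pearson correlation of their deviations from the group means was 0.81 over 12 arrays. Their plain values had a correlation of 0.43 (Spearman 0.62), which ranked Anxa3 number 4160 of 17315 genes by likeness to Anxa1. For Clu the correlation of deviations was -0.40 with Anxa1 and -0.28 with Anxa3, and that of plain values -0.04 and -0.39. The macrophage markers were highest in tumours 15 (8.65), 18 (8.57) and 9 (8.26) and at most 7.58 in the other 9. Of these, tumours 15 and 9 had the highest Anxa1 and tumour 18 the second highest Anxa3, while tumour 17, with the highest Anxa3 (9.89), had macrophage markers at 7.14. The part of these cells in the annexin values was not tested.

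The difference of Anxa3 minus Anxa1, examined after the values were seen, separated the genotypes. On the log2 scale it was -0.63, -1.31 and -1.41 in Stat3-deleted male tumours and -1.40, -1.16 and -1.42 in Stat3-deleted female tumours. It was -2.15, -1.99 and -2.10 in control male tumours and -1.65, -2.22 and -2.14 in control female tumours. All 6 Stat3-deleted tumours lay above all 6 controls, with means of -1.22 ± 0.31 and -2.04 ± 0.21 (SD, n = 6 each). The same was not seen in epithelial cells, where the difference was 1.18 ± 0.41 in Stat3-deleted and 1.25 ± 0.15 in control cells (SD, n = 3 each). With Anxa1 as the partner, 0.352% of the other 17315 genes gave a difference without overlap between the genotypes, and with Anxa3 as the partner 3.05% did, while 1.36% of genes did not overlap by themselves. Because the pair was picked for this pattern, it is given without a test.

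**Figure D5:**
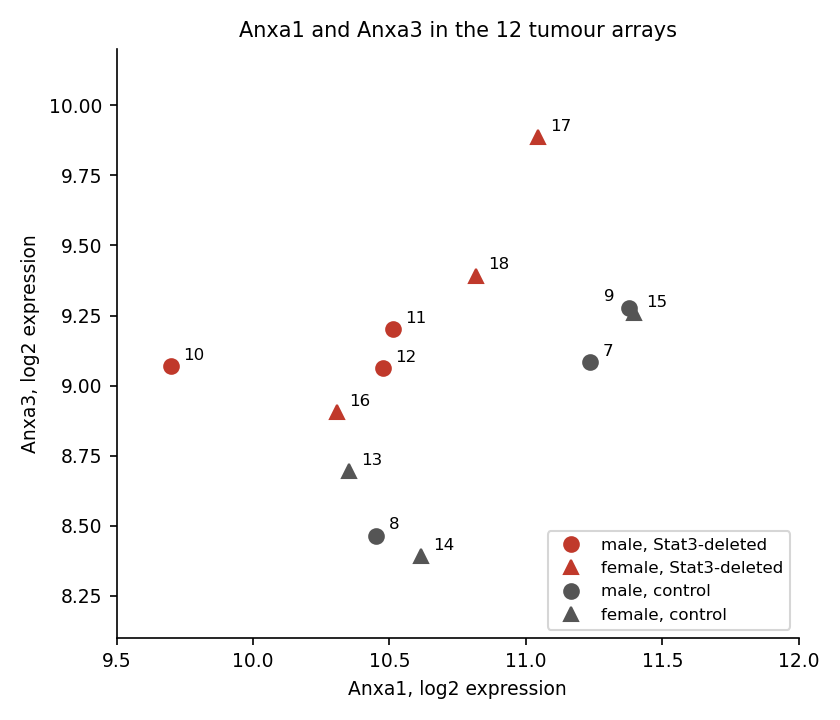
Log2 expression of Anxa3 (y axis) against Anxa1 (x axis) in the 12 tumour arrays, numbered by replicate, with Stat3-deleted tumours in red, controls in grey, males as circles and females as triangles. Within a genotype most tumours with more Anxa1 also have more Anxa3, and Stat3-deleted tumours have more Anxa3 for their Anxa1, by 0.82 on average.

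The genes whose values were most like those of each gene over the 12 tumours are given as a description, since the highest of 17315 correlations over 12 arrays are high by selection. For Clu they were Eya2, Cpne8, Qsox1, Lrp5 and Gnao1 (Pearson 0.96 to 0.91), where Lrp5 encodes a WNT co-receptor. For Anxa1 they were Tmod3, Itgb1, Zfp644, Ranbp9 and Ing3 (0.96 to 0.93), where Itgb1 encodes the integrin beta 1 chain. For Anxa3 they were Macc1, Osbpl3, Fgd3, Plcb2 and Bod1l (0.91 to 0.86). No gene was in more than 1 of the 3 sets of 5.

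The promoter of Anxa1 is shown because Anxa1 ranked next to the top among genes higher in tumours and TEAD factors are the DNA-binding partners of Yap1. Of the 3 genes, RefSeq's promoter table (GRCm38.p6) matched Anxa1. The 250 bases before the start of Anxa1, on the minus strand of chr19:20390672-20390921, are printed with the TEAD-type letters CATTCC in capitals.
Anxa1: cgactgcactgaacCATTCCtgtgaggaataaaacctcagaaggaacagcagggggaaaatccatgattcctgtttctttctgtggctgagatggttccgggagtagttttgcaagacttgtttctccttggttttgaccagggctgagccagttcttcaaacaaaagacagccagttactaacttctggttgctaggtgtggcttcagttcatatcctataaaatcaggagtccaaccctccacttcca
CATTCC or its reverse complement occurred once in this window, starting 236 bases before the transcript start, and in 12.6% of the 32851 windows of the same length in the table. The STAT-type letters TTCNNNGAA, searched on both strands, occurred 0 times in the window and in 7.02% of all windows. The match is a description of the letters and not of binding.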

How the data were processed

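Total RNA was labelled with an Affymetrix WT kit and hybridised to 18 arrays, per the labels' protocols. The deposited log2 values were made by the authors with RMA, per the submitters' processing notes; the version of RMA is not given in the sources used here. Symbols for the 35556 probe sets came from GEO's platform annotation: 21789 had 1 symbol, 1621 several and 12146 were not listed. Each gene was represented by its probe set with the highest mean, and genes above the array's 25th percentile on at least 3 arrays were tested. The number of arrays limits the precision.

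Groups were read from the sample titles. A mean per group was fitted to all 18 arrays in limma 3.58.1 (R 4.3.3) with an intensity trend, two-sided, with Benjamini-Hochberg adjustment over all tested genes within each of 9 comparisons and a threshold of 0.05. The fit was tested on simulated data with independent noise, which cannot show how it handles outlying arrays. Genes, gene lists and alternatives were chosen with earlier results of these data known. Named were Clu, Anxa1 and Anxa3, up to 4 members per list, comparison and direction by smallest adjusted p among those that passed, annexins, Ly6 genes, receptors and cell type markers at any p, and the 5 genes most correlated with each gene. Ccn1, Ccn2 and Emp1 were chosen after their values were seen. Alternatives were quantile normalisation, no filter, no trend, array weights, only the compared groups, leaving out each array, leaving out control tumours 9 and 15, and male tumours only.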

Additional observations from a re-analysis of the deposited data

How the results depend on the processing

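In every alternative run, Clu, Anxa1 and Anxa3 all passed in both tumour against epithelial cell comparisons and 0 of the 3 passed in any other comparison. Of 432 alternative values, 403 kept their direction and side of the threshold, and 29 differences that did not pass changed sign; the cause was not tested. With array weights, Stat3 deletion gave -0.0022 for Anxa3 in male tumours, 0.060 for Anxa1 in female tumours, and 0.073 for Anxa1 and 0.14 for Anxa3 in epithelial cells, and the sex difference of Clu was -0.069. Without control tumours 9 and 15 Anxa1 in female tumours was 0.24. For male against female tumours, quantile normalisation gave 0.028 for Clu and 0.0057 for Anxa3, array weights 0.25 for Anxa1 and 0.16 for Anxa3, and leaving out tumours 9 and 15 gave 0.0081 for Clu. Leaving out 1 array at a time, deletion in tumours of both sexes gave -0.35 to -0.15 for Clu, -0.57 to -0.28 for Anxa1 and 0.27 to 0.51 for Anxa3. It also gave -0.069 to 0.34 for Anxa3 in male tumours, -0.28 to 0.24 for Anxa1 in female tumours, -0.17 to 0.026 for Anxa1 and -0.26 to 0.074 for Anxa3 in epithelial cells, and -0.052 to 0.35 for the sex difference of Clu. For male against female tumours it gave -0.097 to 0.10 for Clu, -0.24 to 0.023 for Anxa1 and -0.18 to 0.061 for Anxa3. The closest approaches to a call were both for Clu. For the difference of the deletion effect between tissues, the lowest limma adjusted p over the alternatives was 0.0549. Under deletion in tumours of both sexes it was 0.0557, with array weights (-0.40). Over all genes, deletion in tumours of both sexes gave 123 calls, against 1414 with array weights, 43 with the compared groups only, 202 without tumours 9 and 15 and 64 to 265 leaving out 1 array. In male tumours it gave 40 calls, against 2 with the compared groups only and 117 without tumour 9 and tumour 15. In female tumours it gave 18 calls, against 745 with array weights and 0 with the compared groups only. In epithelial cells it gave 4 calls, against 1134 with array weights, and the difference between tissues gave 2, against 1038 with array weights and 8 without tumours 9 and 15. Anxa3 minus Anxa1 differed between the genotypes by 0.82, against 0.80 with quantile normalisation, 0.78 without tumours 9 and 15 and 0.70 to 0.91 leaving out 1 array. These alternatives were chosen after seeing the data. They reuse the arrays on which the pair was picked, so they lend the pattern no independent support. Each gene had 1 named probe set, so no other probe set was tried. No paired analysis was possible because the replicate numbers run over the whole series and no 2 groups share one.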
